A study of Homo sapiens with 6 samples.

Results

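Transcripts of 37 epithelial genes were followed through 3 h of auxin treatment and a 48 h washout in HCT116, a line of human colon cancer cells that grows as an epithelial sheet. The 37 genes were taken by exact symbol from the 31628 genes of the deposited table. The symbols set the rule, and the list itself was drawn up with earlier results of these data known. They fall into 9 keratins, 4 adherens junction genes, 8 desmosome genes, 11 tight junction genes and 5 epithelial regulators. The symbol F11R has a second row, which stands for a locus that overlaps TSTD1 and held 6 to 18 reads, and the first row is used below.

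In these cells the ENL gene (MLLT1), which encodes a reader of acetylated histones, carries an auxin-inducible degron (AID), and the plant auxin receptor AtAFB2 is stably expressed. The 6 RNA-seq libraries form 3 groups of 2. Control cells received no auxin. IAA cells received the auxin indole-3-acetic acid for 3 h, at a dose written as 500 um in the labels. Washout cells received the same IAA treatment, were washed with PBS and were then kept for 48 h without it. All 3 groups, control included, carry the degron tag and AtAFB2, so an effect of IAA on cells without the degron was not measured. The AID clones were selected with puromycin and blasticidin, and the labels do not say how many clones the cells come from. The labels do not say whether the replicates are separate cultures, so p-values measure only the spread between these libraries, which may be technical.

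Keratins are the intermediate filaments of epithelial cells and assemble from pairs of an acidic and a basic chain, of which KRT18 with KRT8 is the pair of simple epithelia such as the colon. Desmosomes anchor these filaments at the membrane through desmosomal cadherins, plakoglobin, plakophilins and desmoplakin. Adherens junctions join classical cadherins to actin through catenins, and tight junctions seal the space between cells with claudins and occludin on a scaffold of cytoplasmic proteins.

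Values are FPKM, fragments per kilobase of gene scaled to library size, which in this table divide by the whole gene span with its introns. Levels of different genes are therefore compared below per exon length, as RPKM over exons, from whole reads recovered out of the FPKM. The library totals that the FPKM divide by, inferred from the steps between FPKM values, were 16440000 to 16770000 reads over the 6 libraries. Of 8 colon epithelial markers 7 reached a mean FPKM of 1 or more, whereas CDH17, an intestinal cadherin, had 0 to 3 reads. The 8 summed to 373 and 386 FPKM in control, 311 and 305 with IAA, and 361 and 377 once IAA was washed out, a sum that includes KRT8, KRT18 and KRT19. Of 16 fibroblast, endothelium and blood markers in the table, 0 reached a mean FPKM of 1, CD3E and PDGFRA were at 0, and the sum was 0.666 and 0.757 in the control libraries, 0.959 and 0.755 in the IAA libraries, and 0.962 and 1 FPKM in the washout libraries. MLLT1 had 459 and 480 reads in the control libraries, 445 and 402 in the IAA libraries, and 463 and 428 in the washout libraries, a log2 difference of -0.18 with IAA on recovered reads (limma voom, adjusted p = 0.227). The degron acts on the ENL protein, which these data do not measure.

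The genes ranged widely in level. KRT19 led with an RPKM over exons of 244 across the 6 libraries, followed by KRT8 with 202, KRT18 with 196 and EPCAM, the epithelial adhesion molecule used as a carcinoma marker, with 101. The order of the 3 keratins is for reads assigned to the gene rows, and it depends on the exon length used. That length is the union of exons over all annotated transcripts, 6881 bases for KRT8, 3218 for KRT18 and 2336 for KRT19. By mean reads alone KRT8 led with 23195, followed by KRT18 with 10484 and KRT19 with 9497. Rows named as their pseudogenes, described below, held 29403 reads on average for KRT8, 12184 for KRT18 and 2994 for KRT19. Whether those reads come from the keratins or from the copies is not known. CLDN7 (64.8), JUP (55.4), ST14 (55.3), CTNND1 (53.4), CDH3 (50.4), DSG2 (49.7) and DSP (47.8) formed the next tier on this scale. At the lower end KRT7 stood at 3.09, DSC2 at 2.08, CLDN2 at 1.81 and KRT20 at 1.54. CLDN1, a claudin of many epithelia, was barely detected, with 5 and 1 reads in the control libraries, 4 and 2 in the IAA libraries, and 7 and 2 in the washout libraries. It was not tested.

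Setting IAA against control asks which of these transcripts shift within 3 h of adding the agent that degrades ENL. The keratins moved down. By limma on log2(FPKM + 1), run over the 8317 genes that reached 1 FPKM on average, 6 of the 7 tested keratins fell (KRT8, KRT15, KRT18, KRT19, KRT23 and KRT80) and KRT10 did not pass. Across all 28 tested members 7 fell, the other being CLDN3, and 0 rose, where 6.49% of all tested genes fell and 6.64% rose. The median log2 difference was -0.38 over the 7 keratins, -0.04 over the 28 members and 0.01 over all tested genes. The 9 members below the filter, KRT7, KRT20, CTNNA1, DSC2, PKP2, CLDN1, CLDN2, CLDN12 and GRHL2, were not tested on FPKM.

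Long genes miss the FPKM filter at read numbers where short genes pass, so a second test used the recovered reads. With limma voom over the 14812 genes that had a mean of at least 10 reads, 16 of 36 members fell and 5 rose, where 12.4% of all genes tested this way fell and 11.1% rose. Keratins fell in 7 of 9, adherens junction genes in 2 of 4, desmosome genes in 4 of 8, tight junction genes in 2 of 10 and epithelial regulators in 1 of 5. The members that rose were CTNNA1 of the adherens junctions, CLDN12, OCLN and TJP1 of the tight junctions, and the regulator ESRP1. Of the members under the FPKM filter, KRT7, CTNNA1, DSC2, PKP2, CLDN2 and CLDN12 passed on reads and not by limma on FPKM with the filter lowered to 0.1. CDH3, CTNND1, DSP, PKP3, CGN, EPCAM, OCLN, TJP1 and ESRP1 were above the filter and passed on reads only. Both tests pool variance over genes, so voom p-values and calls that hold without a library do not rest on 2 libraries a group alone. For KRT80 the SE was 0.0388 by limma on FPKM (adjusted p = 0.00223) and 0.0598 by voom (adjusted p = 2.56e-16). In bulk RNA, fewer cells of a type and less RNA per cell cannot be told apart.

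KRT80 (ENSG00000167767.9, chromosome 12), a basic keratin linked to desmosomes, had the largest fall of the 28 members tested on FPKM. It stood at 6.31 and 6.45 FPKM in the control libraries, 2.98 and 3.07 in the IAA libraries, and 6.11 and 6.4 in the washout libraries. Both IAA libraries lay below all 4 others, which overlapped each other. The mean went from 6.38 ± 0.101 to 3.03 ± 0.0651 FPKM (SD, n = 2 per group), 0.474 of control, with a log2 change of -0.87 (SE 0.0388, limma adjusted p = 0.00223). On recovered reads, 2411 and 2488 in control against 1127 and 1185 with IAA, the change was -1.11 (voom adjusted p = 2.56e-16). This call held by either test without each of the 6 libraries, with a limma adjusted p between 0.0154 and 0.0373.

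KRT7 (ENSG00000135480.10), a basic keratin of ductal epithelia, is the next protein-coding gene to KRT80 on chromosome 12 in RefSeq (GRCh38.p14), which gives the neighbours named below too. It had 218 and 284 reads in the control libraries, 130 and 118 in the IAA libraries, and 248 and 269 in the washout libraries. The IAA libraries again lay below the 4 others. Its log2 change on reads was -1.03 (SE 0.17, voom adjusted p = 1.75e-05, and at most 0.00194 without any 1 library). KRT7 did not pass by limma on FPKM when the filter was lowered, on a scale where a pseudocount of 1 exceeds its own FPKM, 0.358 to 0.861. Its exons overlap those of KRT7-AS and KRT87P on the opposite strand, and the labels do not say which strand was counted.

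KRT23 and KRT15 are acidic keratins encoded on chromosome 17, KRT15 being known from basal cells. KRT23 (ENSG00000108244.12) stood at 3.25 and 3.77 FPKM in the control libraries, 2.16 and 1.9 in the IAA libraries, and 3.18 and 3.22 in the washout libraries. KRT15 (ENSG00000171346.9) stood at 6.3 and 5.93 in the control libraries, 3.9 and 4.19 in the IAA libraries, and 5.79 and 6.1 in the washout libraries. In both genes the IAA libraries were the lowest of the 6 and did not overlap the others. KRT23 fell to 0.579 of control (log2 change -0.57, SE 0.0729, limma adjusted p = 0.0163) and KRT15 to 0.662 (log2 change -0.50, SE 0.0521, limma adjusted p = 0.0124). KRT20, an acidic keratin of differentiated gut epithelium and the neighbour of KRT23, had 61 and 40 reads in the control libraries, 27 and 30 in the IAA libraries, and 52 and 74 in the washout libraries. Its groups did not overlap between control and IAA, but the difference of -0.81 did not pass (voom 95% interval -1.51 to -0.11, adjusted p = 0.0878).

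The 3 abundant keratins fell to between 0.768 and 0.804 of control. KRT8 (ENSG00000170421.7) had 27.8 and 29.3 FPKM in the control libraries, 22.9 and 23 in the IAA libraries, and 27.1 and 28.2 in the washout libraries. KRT18 (ENSG00000111057.6) had 167 and 174, then 135 and 127, then 160 and 172 FPKM, and KRT19 (ENSG00000171345.9), the smallest acidic keratin, had 131 and 132, then 104 and 107, then 126 and 129. IAA libraries were lowest in all 3 genes. They stood at 0.804 of control for KRT8 (log2 change -0.30, SE 0.0452, limma adjusted p = 0.0228), 0.768 for KRT18 (-0.38, SE 0.0552, limma adjusted p = 0.0221) and 0.802 for KRT19 (-0.32, SE 0.0362, limma adjusted p = 0.0137). KRT10, a keratin of stratified epidermis that is also transcribed here, had 7.46 and 9.19 FPKM in the control libraries, 8.43 and 8.39 in the IAA libraries, and 8.78 and 8.76 in the washout libraries. Its log2 difference was 0.02 (limma 95% interval -0.22 to 0.26), so a fall as large as that of KRT80 lies outside the interval.

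Leaving out a library cut these limma calls. Without either control library or either IAA library KRT8, KRT15, KRT18, KRT19 and KRT23 no longer passed, at an adjusted p of up to 0.114, 0.0755, 0.116, 0.0896 and 0.0826. On recovered reads the 6 keratins called by limma, and KRT7, passed without each of the 6 libraries, with KRT15 the weakest of the 6 at a voom adjusted p of up to 4.48e-05.

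**Figure D1:**
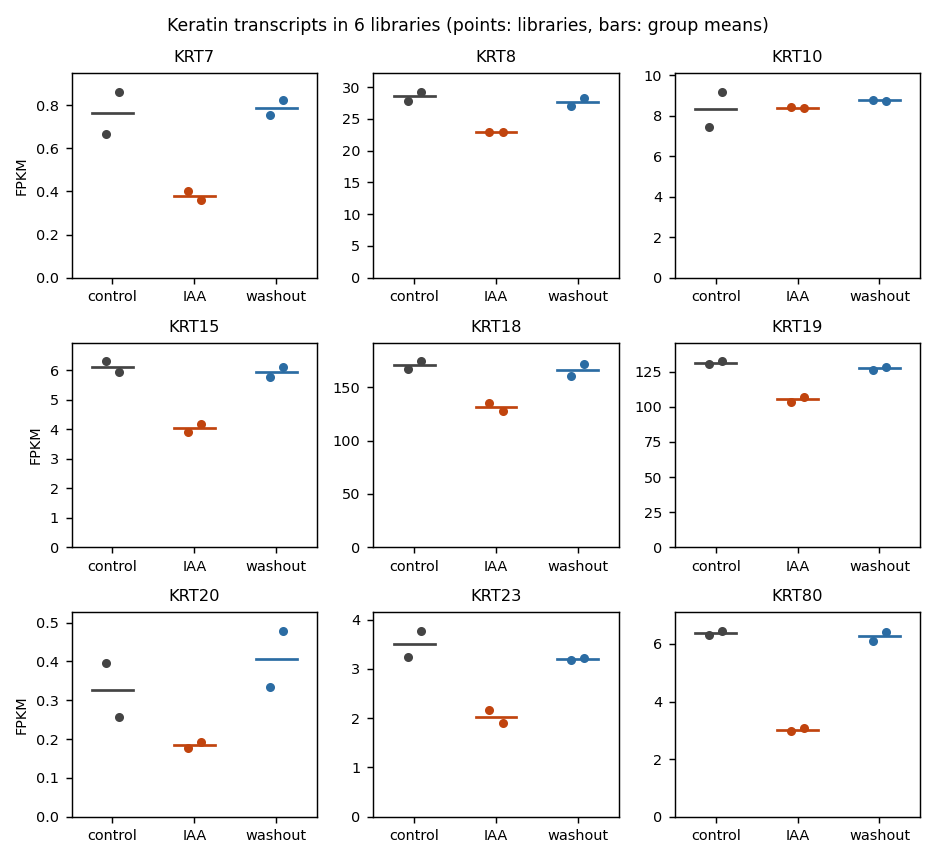
FPKM of the 9 keratins (vertical axes, each from 0) in the control, IAA and washout groups (horizontal axis). Points are libraries and bars are means of 2; the IAA points of KRT80 at 2.98 and 3.07 lie below all other libraries, and those of KRT10 at 8.43 and 8.39 lie between the control points.

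The values of KRT8, KRT18 and KRT19 carry an uncertainty of their own. These genes have many processed pseudogenes, copies of the spliced mRNA elsewhere in the genome, and the table lists 50 rows named as KRT8 pseudogenes, 68 for KRT18 and 5 for KRT19. Pseudogene rows held 55.9% of the combined KRT8 reads, 53.7% of those of KRT18 and 24% of those of KRT19. KRT8P3 alone averaged 26298 reads per library, against 23195 for KRT8 itself, KRT18P11 averaged 4885 and KRT19P1 2962. The closeness of the copies shows in an alignment of the coding sequence in GENCODE 29, where identity was 97.1% for KRT8 and KRT8P3, 95.2% for KRT18 and KRT18P11 (chromosome X) and 90.6% for KRT19 and KRT19P1 (chromosome 6). Of all stretches of 50 bases in the KRT8 coding sequence 28.2% were also present without a mismatch in KRT8P3, and the share was 12.2% for KRT18 and 2.09% for KRT19. The next lines show 100 coding bases of KRT18, from coding base 4, above its pseudogene, 5′ to 3′. Capitals mark the 3 positions that differ.
KRT18: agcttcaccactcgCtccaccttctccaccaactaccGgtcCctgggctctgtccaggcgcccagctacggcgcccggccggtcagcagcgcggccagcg
KRT18P11: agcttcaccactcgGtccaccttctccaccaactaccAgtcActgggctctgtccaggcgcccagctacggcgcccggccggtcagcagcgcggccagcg

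The labels do not say how reads that match a gene and its copy were assigned. With IAA 4 of 13 tested KRT8 pseudogene rows, 12 of 24 of KRT18 and 1 of 2 of KRT19 were lower on recovered reads (voom, adjusted p under 0.05) and 0 were higher. Of all genes tested this way 12.4% were lower and 11.1% higher. By limma on FPKM 1 of 7, 5 of 21 and 1 of 2 were lower and 0 higher, beside 6.49% and 6.64% of all tested genes. KRT19P1, which holds most of the KRT19 pseudogene reads, fell with IAA (-0.32, voom adjusted p = 3.34e-06) but did not rise after washout (0.11, adjusted p = 0.0884) and stayed below control (-0.21, adjusted p = 0.023), whereas KRT19 rose after washout. A test of the difference between the pair was not made. With gene and pseudogene reads summed, an alternative added after the data were seen, the log2 change was -0.33 for KRT8, -0.39 for KRT18 and -0.34 for KRT19. On gene reads alone it was -0.35, -0.41 and -0.35. Exons of KRT8 and KRT18, neighbours on chromosome 12, also overlap on opposite strands.

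**Figure D2:**
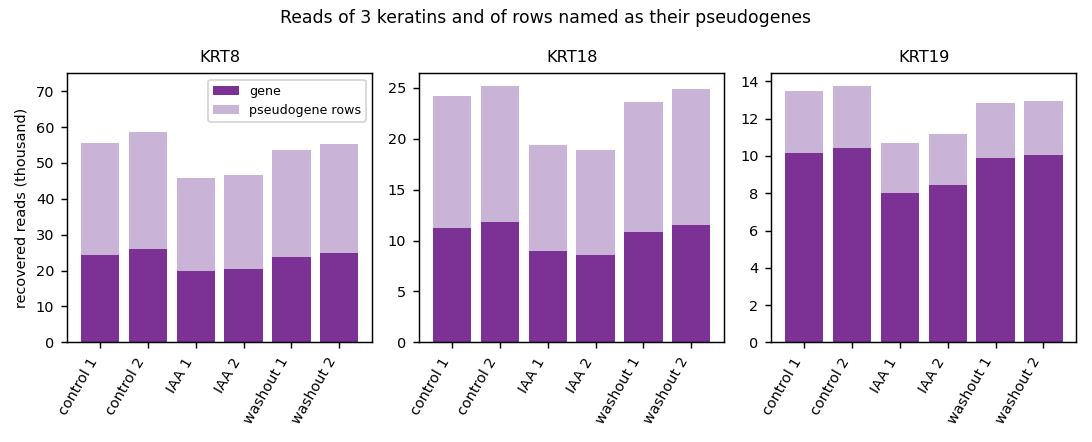
Recovered reads, in units of 1000 (vertical axes) in each of the 6 libraries for KRT8, KRT18 and KRT19 (dark) and for the rows named as their pseudogenes (light, stacked). Both parts of the KRT8 bars are lower in the IAA libraries, at 19894 and 20321 reads for the gene and 25907 and 26219 for the pseudogene rows.

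The 4 adherens junction members had small log2 changes with IAA. On reads 2 fell and 1 rose, where 12.4% of all genes fell and 11.1% rose. CDH1, which encodes E-cadherin, the cadherin that holds epithelial cells together, had 1.56 and 1.64 FPKM in the control libraries, 1.55 and 1.67 in the IAA libraries, and 1.71 and 1.69 in the washout libraries. Control and IAA overlapped, and the log2 difference was 0.01 (limma 95% interval -0.10 to 0.11). CDH3, which encodes P-cadherin and is the next protein-coding gene on chromosome 16, had 5254 and 5307 reads in the control libraries, 4802 and 4984 in the IAA libraries, and 5551 and 5522 in the washout libraries. The groups did not overlap, and CDH3 fell on reads (log2 change -0.13, voom adjusted p = 0.0146) but not by limma on FPKM (-0.08, adjusted p = 0.155).

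The catenin genes CTNNA1 and CTNND1 went in different directions. CTNNA1, the alpha-catenin that binds actin, rose from 4173 and 4189 reads in control to 4700 and 4864 with IAA, with 4405 and 4307 after washout (log2 change 0.17, voom adjusted p = 0.0029). That call held without each library, at an adjusted p of at most 0.0391. CTNND1, the delta-catenin that steadies cadherins at the membrane, fell from 8237 and 7790 to 7229 and 7665 reads, with 7986 and 8079 after washout (log2 change -0.13, voom adjusted p = 0.0143). The CTNND1 call was lost without control replicate 1 or IAA replicate 1 (voom adjusted p up to 0.242), and that of CDH3 without either control library or IAA replicate 1 (up to 0.119).

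Among desmosome genes the plakophilins, plaque proteins that link desmosomal cadherins to desmoplakin, were lower with IAA. PKP2 had 738 and 736 reads in the control libraries, 573 and 577 in the IAA libraries, and 810 and 788 in the washout libraries. Both IAA libraries lay below all others, and PKP2 fell by 0.38 on the log2 scale (voom adjusted p = 0.000663, at most 0.00766 without any 1 library). PKP3 had 11.3 and 11.5 FPKM in the control libraries, 10.5 and 10.1 in the IAA libraries, and 12.3 and 12.4 in the washout libraries. The groups were separate, at 0.9 of control with IAA, and PKP3 passed on reads (-0.18, voom adjusted p = 0.00934) but not on FPKM (-0.14, limma adjusted p = 0.083).

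The desmosomal cadherins and the other plaque proteins differed among themselves in size of change. DSC2, a desmocollin, fell from 482 and 456 to 366 and 359 reads, with 478 and 458 after washout (log2 change -0.39, voom adjusted p = 0.00411, at most 0.0474 without any 1 library). Its partner DSG2, a desmoglein, had 5215 and 5087 reads in the control libraries, 4836 and 4881 in the IAA libraries, and 5343 and 5407 in the washout libraries, and its difference of -0.11 did not pass (voom adjusted p = 0.0554). DSP, the desmoplakin that binds keratin filaments, had 11 and 10.8 FPKM in the control libraries, 9.98 and 10.3 in the IAA libraries, and 10.8 and 11.3 in the washout libraries. IAA libraries of DSP were lowest, and it fell on reads (-0.14, voom adjusted p = 0.00702) but not on FPKM (-0.10, limma adjusted p = 0.177). JUP (plakoglobin) and the plakin linkers PPL (periplakin) and EVPL (envoplakin) did not pass by either test, at 1.08, 0.998 and 1.06 of control. The calls of DSP and PKP3 were each lost without 1 control or 1 IAA library, replicate 1 for DSP and replicate 2 for PKP3, at a voom adjusted p of up to 0.099 and 0.0898.

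Tight junction genes split by direction. TJP1, the scaffold that ties claudins and occludin to actin, had 5355 and 5203 reads in the control libraries, 6256 and 6277 in the IAA libraries, and 5603 and 5853 in the washout libraries. OCLN, occludin, had 1324 and 1472, then 1740 and 1649, then 1389 and 1425 reads. IAA libraries were the highest in both genes. TJP1 rose by 0.22 on the log2 scale (SE 0.0413, voom adjusted p = 9.27e-05, at most 0.0101 without any 1 library) and OCLN by 0.25 (SE 0.0628, voom adjusted p = 0.00263). By limma on FPKM neither passed, at 0.14 for TJP1 (adjusted p = 0.0652) and 0.17 for OCLN (adjusted p = 0.0814). MARVELD2, tricellulin of tricellular contacts and the neighbour of OCLN on chromosome 5, had 2.33 and 2.32 FPKM in the control libraries, 2.34 and 2.23 in the IAA libraries, and 2.42 and 2.25 in the washout libraries. Its groups overlapped, and its log2 difference with IAA was -0.02 (limma 95% interval -0.13 to 0.09).

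CGN, cingulin, a cytoplasmic partner of TJP1, went the other way, with 683 and 606 reads in the control libraries, 532 and 475 in the IAA libraries, and 662 and 727 in the washout libraries (log2 change -0.38, voom adjusted p = 0.00311). F11R, the junctional adhesion molecule A, stood at 1.14 of control without passing (voom adjusted p = 0.0863). Of these calls OCLN was lost without control replicate 1 or IAA replicate 1 (voom adjusted p up to 0.109) and CGN without control replicate 1 or IAA replicate 2 (up to 0.0792).

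Claudins form the paracellular seal or pores, and on reads 1 fell and 1 rose with IAA. CLDN2, a pore-forming claudin, had 111 and 137 reads in the control libraries, 70 and 72 in the IAA libraries, and 113 and 113 in the washout libraries. IAA libraries were the lowest, and CLDN2 fell (log2 change -0.82, voom adjusted p = 0.00501), a call lost without control replicate 2 (0.0758). CLDN12 had 726 and 728 reads in the control libraries, 814 and 916 in the IAA libraries, and 707 and 614 in the washout libraries, and rose (0.22, voom adjusted p = 0.041), a call lost without either control library or IAA replicate 2 (up to 0.327). Its exons overlap those of 4 other genes on the same strand.

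CLDN3 and CLDN4, sealing claudins, are neighbours on chromosome 7, of which CLDN3 alone was called with IAA, and by limma on FPKM only. CLDN3 had 7.52 and 7.69 FPKM in the control libraries, 6.59 and 6.28 in the IAA libraries, and 8.88 and 8.78 in the washout libraries, with 134 to 189 reads per library. IAA libraries were the lowest and washout libraries the highest. CLDN3 fell by limma on FPKM (-0.21, SE 0.0393, adjusted p = 0.0358) but not on reads (-0.27, voom adjusted p = 0.267), and the limma call was lost without any 1 of the 6 libraries (up to 0.152). CLDN4 had 5.13 and 5.14 FPKM in the control libraries, 5.15 and 5.56 in the IAA libraries, and 5.51 and 5.24 in the washout libraries. Control and IAA were nearly level, with a log2 difference of 0.05 (limma 95% interval -0.07 to 0.17), and CLDN7, the most abundant claudin here, stood at 0.993 of control (limma 95% interval -0.16 to 0.14). A test of the difference between CLDN3 and CLDN4 was not made.

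The promoters of this neighbouring pair are shown because by limma on FPKM CLDN3 was called with IAA and CLDN4 was not. On reads neither passed (voom adjusted p = 0.267 for CLDN3 and 0.748 for CLDN4). They are the 250 bases before the transcription start from RefSeq, build GRCh38.p14, read in the direction of the gene. CLDN3 lies on the minus strand at chr7:73770271-73770520 and CLDN4 on the plus strand at chr7:73830746-73830995. Capitals mark the GC box, GGGCGG on either strand.
CLDN3: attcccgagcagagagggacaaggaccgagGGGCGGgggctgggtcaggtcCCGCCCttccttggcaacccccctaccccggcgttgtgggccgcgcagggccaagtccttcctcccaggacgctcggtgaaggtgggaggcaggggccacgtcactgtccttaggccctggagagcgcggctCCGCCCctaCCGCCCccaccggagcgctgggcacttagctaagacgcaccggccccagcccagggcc
CLDN4: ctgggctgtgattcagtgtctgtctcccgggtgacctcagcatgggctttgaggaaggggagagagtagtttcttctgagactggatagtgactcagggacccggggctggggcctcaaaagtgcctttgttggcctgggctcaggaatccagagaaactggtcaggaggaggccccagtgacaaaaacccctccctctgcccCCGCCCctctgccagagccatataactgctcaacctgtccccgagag

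CLDN3 held 4 GC boxes at 71.6% GC and CLDN4 held 1 at 58.8% GC. The table of promoters covered 18 of the 37 genes with 29 promoters. Of these 17 held a GC box, where 42.6% of all 35116 promoters of that length did. The AP-1 motif TGANTCA was in 2 of 29 (CLDN2 and CLDN4) against 6.57% of all, the CCAAT box in 10 against 32% and the TATA box TATAAA in 1 (KRT10) against 10.7%. Both strands were searched and overlaps between motifs were not removed. A match describes letters, not a bound site, and a link between these motifs and the change with IAA was not tested.

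Of the epithelial regulators, EPCAM had 4557 and 4352 reads in the control libraries, 4062 and 4031 in the IAA libraries, and 4154 and 4397 in the washout libraries. It fell on reads (-0.16, voom adjusted p = 0.00798), a call lost without control replicate 1 or IAA replicate 2 (up to 0.131). ESRP1, a splicing regulator that sets epithelial isoforms, had 2146 and 2167, then 2395 and 2540, then 2181 and 2252 reads. IAA libraries were the highest, and ESRP1 rose (0.17, voom adjusted p = 0.0158), a call lost without either control library or IAA replicate 2 (up to 0.145). GRHL2, a transcription factor that maintains epithelial genes, had 430 and 391 reads in the control libraries, 489 and 502 in the IAA libraries, and 457 and 432 in the washout libraries, and its difference of 0.25 did not pass (voom adjusted p = 0.066). LLGL2, a polarity protein, and ST14, the membrane protease matriptase, differed by 0.00 and 0.04 on the log2 scale (limma 95% intervals -0.09 to 0.10 and -0.09 to 0.18).

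**Figure D3:**
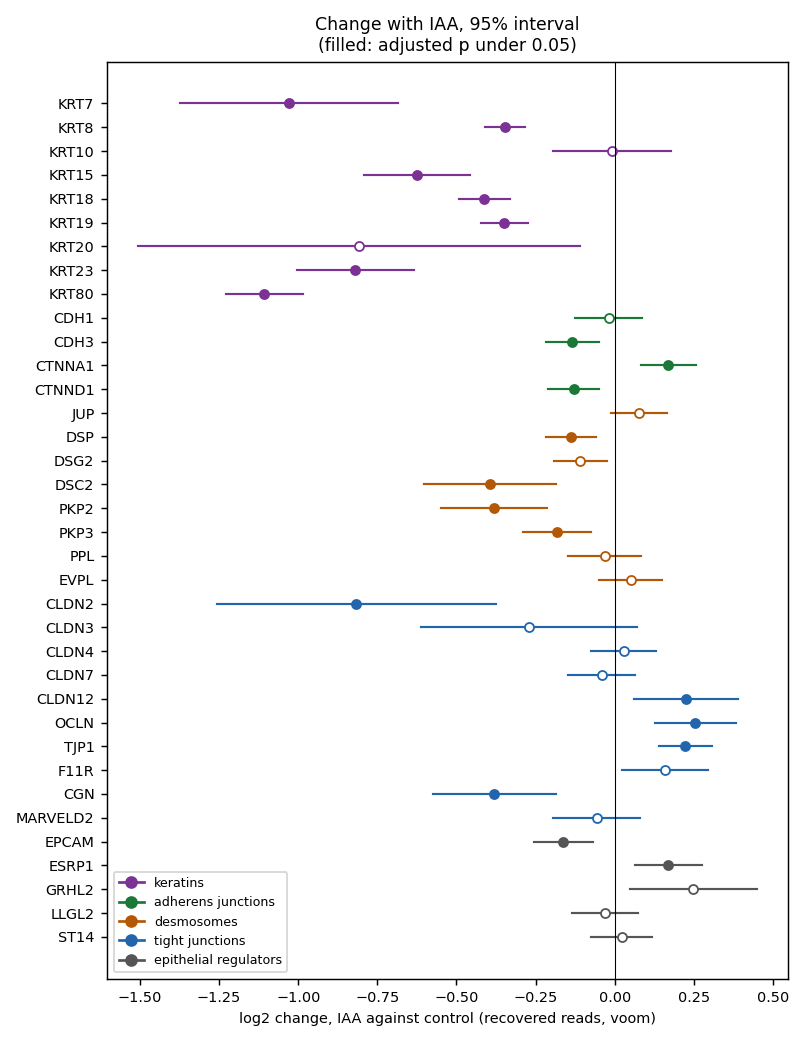
Log2 difference of IAA against control on recovered reads (horizontal axis, voom) for the 36 tested genes by structure (vertical axis). Points are estimates, lines are 95% intervals and filled points have an adjusted p under 0.05; keratins reach -1.11 at KRT80 while the points above 0 end at 0.25.

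Both libraries of the IAA group lay below both control libraries in 14 of the 28 members tested on FPKM and above both in 7, where 28.2% of all 8317 genes lay below and 33.7% above.

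Setting washout against IAA asks whether levels return once IAA is removed. The washout cells also had the PBS wash and 48 h more in culture than the IAA cells. The labels name no untreated group that was washed and kept for 48 h. Removal of IAA therefore cannot be told apart from the wash and the added time. By limma 6 of 7 tested keratins rose, KRT8, KRT15, KRT18, KRT19, KRT23 and KRT80. With PKP3 and CLDN3, 8 of 28 members rose and 0 fell, where 7.73% of all tested genes rose and 6.65% fell. On recovered reads 18 of 36 members rose and 6 fell, where 12.9% and 12.4% of all genes did (25.3% in either direction). Both washout libraries lay above both IAA libraries in 18 of the 28 members and below in 5, where 31.4% and 30.7% of all 8317 genes did. This contrast and the one above share the IAA libraries, so their values are not independent.

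KRT80 rose 2.07-fold over its level with IAA (log2 change 0.85, SE 0.0388, limma adjusted p = 0.0028, at most 0.0373 without any 1 library). KRT7 also rose 2.07-fold (voom log2 change 1.07, adjusted p = 8.67e-06), KRT23 1.58-fold (limma adjusted p = 0.0241), KRT15 1.47-fold (0.0139), KRT18 1.27-fold (0.0264), KRT19 1.21-fold (0.0183) and KRT8 1.2-fold (0.03). KRT20 passed here on reads (1.12, voom adjusted p = 0.0111), a call lost without IAA replicate 1 or washout replicate 2 (up to 0.126). KRT10 did not pass (limma adjusted p = 0.726). By limma, KRT15 and KRT23 lost their call without either IAA or either washout library, and KRT8, KRT18 and KRT19 without any 1 of the 6, at an adjusted p of up to 0.126. On reads all 5 and KRT7 passed without each library.

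Among junction genes PKP3 rose 1.2-fold (log2 change 0.24, limma adjusted p = 0.0254) and CLDN3 1.37-fold (0.40, limma adjusted p = 0.0106). Without any 1 library PKP3 reached up to 0.111, and without either IAA or washout library CLDN3 reached up to 0.0685. On reads PKP2 rose by 0.48 (voom adjusted p = 2.34e-05), CGN by 0.47 (0.000228), DSC2 by 0.38 (0.00571), CDH3 by 0.19 (0.000634) and DSG2 by 0.16 (0.00491). These 5 passed without each library. DSP, CTNND1 and CLDN2 also rose on reads, with calls lost without at least 1 library (voom adjusted p up to 0.086, 0.227 and 0.0965).

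The genes that fell after washout on reads were CLDN12 by 0.38 (voom adjusted p = 0.000678), OCLN by 0.26 (0.00212), F11R by 0.21 (0.0172), ESRP1 by 0.15 (0.0379), CTNNA1 by 0.12 (0.0265) and TJP1 by 0.12 (0.0279). CLDN12 and OCLN passed without each library. The calls of F11R, ESRP1, CTNNA1 and TJP1 were lost without at least 1 IAA or washout library, at an adjusted p of up to 0.462, 0.241, 0.151 and 0.268. By limma on FPKM 0 members fell. EPCAM stood at 1.05-fold without passing (voom adjusted p = 0.167).

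**Figure D4:**
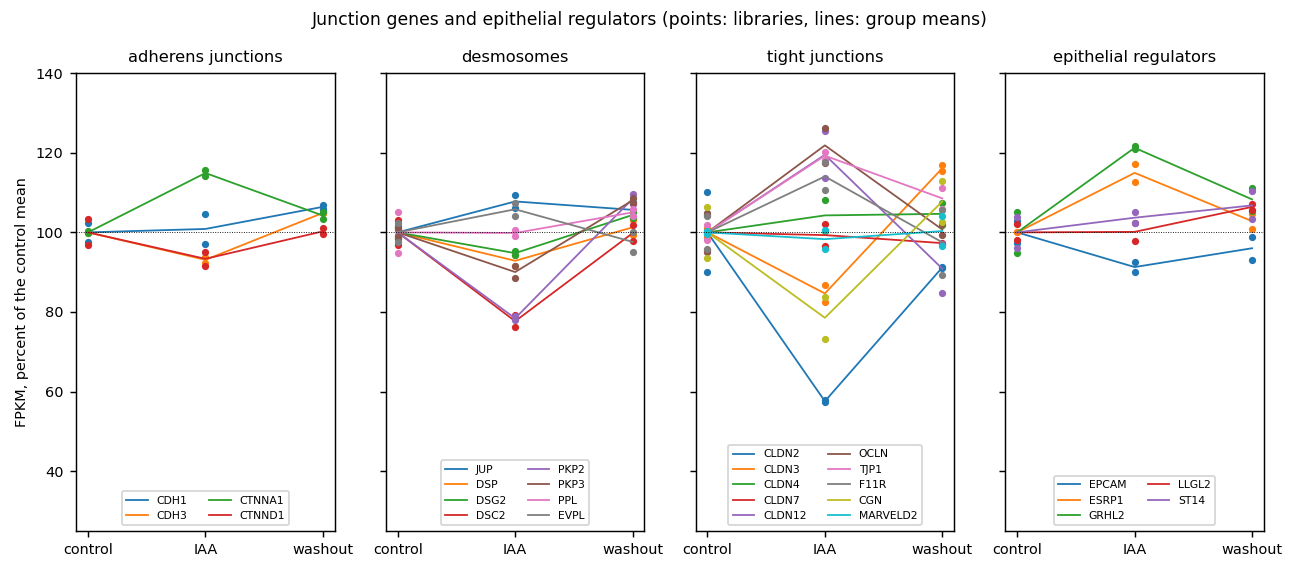
FPKM as percent of the control mean (vertical axis) in control, IAA and washout (horizontal axis) for the adherens junction, desmosome, tight junction and epithelial regulator genes except CLDN1. Points are libraries and lines join group means; DSC2 and PKP2 dip with IAA to 0.777 and 0.784 of control, and TJP1 and OCLN peak at 1.19 and 1.22.

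Setting washout against control asks what remained 48 h later. By limma 0 members and 0 of 8317 genes passed, 0% of those tested. An unadjusted limma p under 0.05 was found in 750 genes (9.02%) and 2 of 28 members. On recovered reads 0 of 36 members passed, with 0.257% of all genes higher and 0.432% lower (0.689% in either direction). Here 1614 of 14812 genes (10.9%) and 1 of 36 members had an unadjusted voom p under 0.05. KRT80 stood at 0.981 of control (log2 difference -0.02, limma 95% interval -0.13 to 0.08) and KRT7 at 1.03 (voom 95% interval -0.24 to 0.32). KRT23, the keratin furthest below control on FPKM, stood at 0.913 (limma 95% interval -0.29 to 0.09), with both washout libraries below both control libraries. KRT19 also had both washout libraries below control, at 0.969.

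CLDN3 was the furthest above control among the members tested on FPKM, at 1.16 (limma 95% interval 0.09 to 0.29, adjusted p = 0.507), with both washout libraries above both control libraries. PKP3 and PKP2 both stood at 1.08 with the groups apart. In 10 of the 28 members both washout libraries lay above both control libraries and in 2 they lay below, where 24.4% of all tested genes lay above and 17.8% below. Intervals that span 0 do not show that a level had fully returned.

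Other genes of the same structures were read from lists of further members. On reads 12.4% of all genes fell with IAA and 11.1% rose, the background for each count in these lists. Of 8 other intermediate filament genes 3 fell and 0 rose. KRT81, a hair keratin on chromosome 12, fell from 82 and 92 reads to 34 and 38, with 97 and 100 after washout (log2 change -1.29, voom adjusted p = 0.000636). The nuclear lamins LMNB1 and LMNB2 fell by 0.17 (adjusted p = 0.00568) and 0.12 (0.0288). Of 14 other adherens junction genes 5 fell and 2 rose on reads. VCL, vinculin, fell from 9.02 and 8.84 to 7.47 and 7.8 FPKM (log2 change -0.20, limma adjusted p = 0.0385), and the nectin NECTIN3 from 1096 and 1041 to 638 and 658 reads (-0.74, voom adjusted p = 2.87e-09). AJUBA, a junctional LIM protein, rose from 8.95 and 10.3 to 14.8 and 13.5 FPKM (0.51, limma adjusted p = 0.0282). CTNNAL1 and LIMA1 were above control after washout on reads, by 0.29 (voom adjusted p = 0.00368) and 0.22 (0.0122).

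Of 10 other desmosome and hemidesmosome genes 4 fell on reads and 0 rose, beside 12.4% and 11.1% of all genes. ITGB4, the integrin of hemidesmosomes that connects to keratins, fell from 34.3 and 35.6 to 27.9 and 29.4 FPKM, with 34.5 and 34.2 after washout (log2 change -0.28, limma adjusted p = 0.0263). Its partners ITGA6 and CD151 fell too on reads, by 0.22 (voom adjusted p = 0.000626) and 0.23 (0.000397). Of 24 other tight junction and polarity genes 3 fell and 1 rose on reads, and 20 did not pass. YBX3, a DNA-binding protein found at tight junctions, fell from 7.4 and 7.61 to 6.51 and 6.47 FPKM (log2 change -0.18, limma adjusted p = 0.0397). PALS1, a scaffold of the apical polarity complex, rose from 1023 and 992 to 1284 and 1186 reads (0.27, voom adjusted p = 0.00471). Among 19 other epithelial regulators and markers 6 fell and 5 rose. ESRP2, the paralogue of ESRP1, fell by 0.50 (voom adjusted p = 8.12e-06) and KLF5, a zinc finger factor of proliferating epithelium, by 0.54 (7.82e-10). OVOL1, an epithelial repressor, rose from 642 and 612 to 1495 and 1564 reads (1.26, voom adjusted p = 1.6e-15) and GRHL1, of the family of GRHL2, from 89 and 101 to 211 and 185 (1.03, voom adjusted p = 6.12e-05).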

How the data were processed

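Poly(A)-selected RNA of 6 libraries was sequenced, per the labels. The authors deposited FPKM per gene and library. HISAT, Bowtie2, HTSeq and edgeR with hg19 are named in the submitters' processing notes. Neither these nor the labels give versions, roles, annotation, strand or filters.

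The 8317 genes whose mean FPKM reached 1 were tested on log2(FPKM + 1), pseudocount 1, by limma (version 3.58.1, R 4.3.3) with a variance trend, a mean per group over all 6 libraries (3 residual and 1.81 prior degrees of freedom), two-sided, with Benjamini-Hochberg adjustment over all genes tested. Called means an adjusted p under 0.05. Log2 changes on this scale understate those of low genes. Ratios are of mean FPKM.

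GENCODE 29 held spans for 94.3% of the IDs. Whole reads were recovered from the deposited FPKM for 99.995% of 21707 genes above 0 (tolerance 0.02 reads), directly with the span for 16866. Of 4291 low genes whose span exceeds their exon length by over 2 times, 85% gave whole reads with the span and 0% with the exon length. Reads of 4255 genes, KRT8, JUP, DSC2, CLDN3, CLDN4, TJP1 and MARVELD2 among them, were set to the nearest whole solution. For 585 genes without a span the smallest whole solution was taken, and the true number can be a multiple of it. Recovered reads summed to between 102.41% and 102.56% of the inferred library totals. They were tested with voom in limma on TMM-scaled totals (14812 genes with a mean of at least 10 reads), which called 3484 genes with IAA against control. Between replicates the chi-square per gene was 2.67 in control, 2.86 with IAA and 3.09 after washout, above the 1 that counting alone gives. The recovery of reads and limma on FPKM were run on simulated data, and voom was not.

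The members and the lists were chosen with earlier results of these data known. All members are named, with MLLT1 and from other lists at most the 4 largest changes per list and comparison. Alternatives were pseudocounts of 0.1 and 5, filters of 0.1 and none, FPKM rescaled to TPM, median-of-ratios scaling, recovered reads, a replicate block and each library left out. Exons of KRT7, KRT8, KRT10, KRT15, KRT18, KRT23, CDH1, CDH3, CTNNA1, CTNND1, DSG2, CLDN2, CLDN7, CLDN12, F11R and GRHL2 overlap another gene's in GENCODE 29, so their reads can be shared. Coding sequences were aligned with Biopython 1.88 in Python 3.11.15.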

Additional observations from a re-analysis of the deposited data

How the results depend on the processing

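Directions of the members' calls were kept under the alternatives run. The count of members lower with IAA, 7, was 16 on recovered reads and between 1 and 6 with a library left out, and that of members higher was 5 on recovered reads. After washout against IAA the count of members higher, 8, was 18 on recovered reads, 4 with the replicate block and between 1 and 4 with a library left out, and that of members lower was 6 on recovered reads. Over all genes 552 rose and 540 fell with IAA. Recovered reads gave 1647 and 1837, the replicate block 239 and 247, and a library left out between 18 and 268 and between 31 and 266. After washout against IAA 643 rose and 553 fell, with 1908 and 1833 on recovered reads, 293 and 239 with the replicate block, and between 28 and 221 and between 18 and 200 with a library left out. Washout against control had 0, with 38 higher and 64 lower on recovered reads, 15 and 13 at a filter of 0.1, and 23 and 25 with no filter. Rescaling to TPM moved the share of higher calls from 50.5% to 38% with IAA and from 53.8% to 66.8% after washout. KRT18 lost its call with IAA with no filter and with the replicate block, as did CLDN3. After washout the block ended the calls of KRT8, KRT18, KRT23 and PKP3, and those of KRT18 and KRT23 were also lost with no filter. The cause was not tested. Same-numbered libraries did not deviate together (r of 0.04, -0.03 and 0.01 across 8317 genes), so the numbers were not taken as pairs. With 2 libraries a group, limma on FPKM can miss small differences, so a gene that did not pass is not shown to be unchanged.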

Other observations

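Most genes of mesenchymal cells were below the FPKM filter, which long genes miss at read numbers where short genes pass. A mean of at least 10 reads was reached by 13 of 20. Of 20 such genes 4 reached a mean FPKM of 1, SNAI1, TAGLN, S100A4 and ITGA5, and TWIST2 was at 0. Their sum was 24.7 and 26.8 FPKM in the control libraries, 22 and 23.1 in the IAA libraries, and 27.5 and 28 in the washout libraries. TAGLN, an actin-binding protein of smooth muscle and fibroblasts, fell with IAA from 4.57 and 5.08 to 2.84 and 2.88 FPKM, with 4.63 and 4.29 after washout (log2 change -0.59, limma adjusted p = 0.011). FN1, fibronectin, had 770 and 818 reads in the control libraries, 532 and 601 in the IAA libraries, and 917 and 912 in the washout libraries, and fell (-0.51, voom adjusted p = 1.72e-05). SPARC, a matrix protein, had 65 and 60, then 26 and 36, then 74 and 44 reads, and fell too (-1.04, voom adjusted p = 0.0171). On reads 3 of 13 tested genes of this list fell with IAA and 0 rose, where 12.4% and 11.1% of all genes did.

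Keratin genes that are neighbours in RefSeq had the following ratios of mean FPKM. KRT80 stood at 0.474 and KRT7 at 0.497 of control with IAA, KRT8 at 0.804 and KRT18 at 0.768, KRT15 at 0.662 and KRT19 at 0.802, and KRT23 at 0.579 and KRT20 at 0.566. Among neighbouring junction genes CDH3 stood at 0.931 and CDH1 at 1.01, CLDN3 at 0.846 and CLDN4 at 1.04, and OCLN at 1.22 and MARVELD2 at 0.983. No test of neighbours was made.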
